A study of Mus musculus with 6 samples.

Results

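The miRNAs described here are 10 mature arms of 6 hairpins in the proximal part of the imprinted Dlk1-Dio3 locus of mouse chromosome 12, the part that lies opposite the gene Rtl1. They were taken by name, and all 10 were among the 1522 rows of the deposited table. The members are both arms of miR-127, miR-434, miR-136 and miR-337, the 5p arm of miR-431 and the 3p arm of miR-433. The libraries hold small RNA of hippocampal neural stem cells (NSCs), which divide and give rise to neurons and glia, from male C57BL/6J pups of postnatal day 3. In the GDE group (gestational dexamethasone exposure, titled IUGR), the dams had received dexamethasone, a synthetic glucocorticoid, once a day at 1 mg/kg, starting at E14.5 and ending at E18.5 (E, embryonic day). Dams of the Control group (titled Normal) had received saline on this schedule. Each group had 3 libraries, which the design text assigns to independent litters, and whether a library pooled several pups is not given in the sources used here.

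As background, the locus carries the protein-coding genes Dlk1, Rtl1 and Dio3, expressed from the paternal chromosome, and long noncoding RNAs and many miRNAs, expressed from the maternal one. Rtl1 is a retrotransposon-derived gene needed for the fetal capillaries of the mouse placenta. The miRNAs opposite to it are cut from a maternal antisense transcript, and in the mouse they direct cleavage of the Rtl1 mRNA, which they match in full. The locus is active in the developing brain. An miRNA otherwise finds its targets mainly through its seed, bases 2 to 8, and a hairpin gives a 5p and a 3p arm, one of which is usually kept more than the other.

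The mature sequences of all 10 members, from RefSeq (GRCm38.p6), are shown because the comparison of seeds and the match to Rtl1 rest on them. Capitals mark the seed.
mmu-miR-127-3p: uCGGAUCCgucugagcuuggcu
mmu-miR-127-5p: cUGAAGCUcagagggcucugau
mmu-miR-434-3p: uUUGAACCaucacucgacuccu
mmu-miR-434-5p: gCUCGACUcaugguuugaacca
mmu-miR-136-5p: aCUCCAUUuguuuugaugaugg
mmu-miR-136-3p: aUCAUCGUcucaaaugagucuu
mmu-miR-431-5p: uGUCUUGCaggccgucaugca
mmu-miR-433-3p: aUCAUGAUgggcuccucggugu
mmu-miR-337-3p: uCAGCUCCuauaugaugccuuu
mmu-miR-337-5p: cGGCGUCAugcaggaguugauu

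The 10 members had 10 different seeds. None of these seeds occurred in another of the 960 table rows that could be matched by name to a RefSeq mature sequence, while 23.8% of those rows shared their seed with at least 1 other row. The members are thus neighbours on the chromosome and not a seed family. The reverse complement of 8 of the 10 sequences was found, over the full length, in the annotated Rtl1 transcript of GENCODE M21, and all 8 sites lay in its coding sequence. No transcript of another gene, miRNA genes apart, held a full match to any of the 10. Sites of the 2 most abundant members are printed next, written 5′ to 3′ on the Rtl1 strand, with the bases opposite the seed in capitals.
Rtl1 site of miR-127-3p: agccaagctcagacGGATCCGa
Rtl1 site of miR-434-3p: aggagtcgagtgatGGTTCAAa

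The exceptions were both arms of miR-337. On GRCm38, Rtl1 is annotated on the minus strand at chr12:109589193-109600330, and the hairpin Mir337 lies on the plus strand at chr12:109585789-109585885, 3308 bp past the annotated 3′ end of the gene. The other 5 hairpins lie on the plus strand within the large exon of Rtl1. They are Mir431 at chr12:109590447-109590537, Mir433 at chr12:109591715-109591838, Mir127 at chr12:109592846-109592915, Mir434 at chr12:109594506-109594599 and Mir136 at chr12:109595327-109595388. By this annotation, 8 of the 10 members are antisense to Rtl1, and miR-337 is a neighbour.

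**Figure D1:**
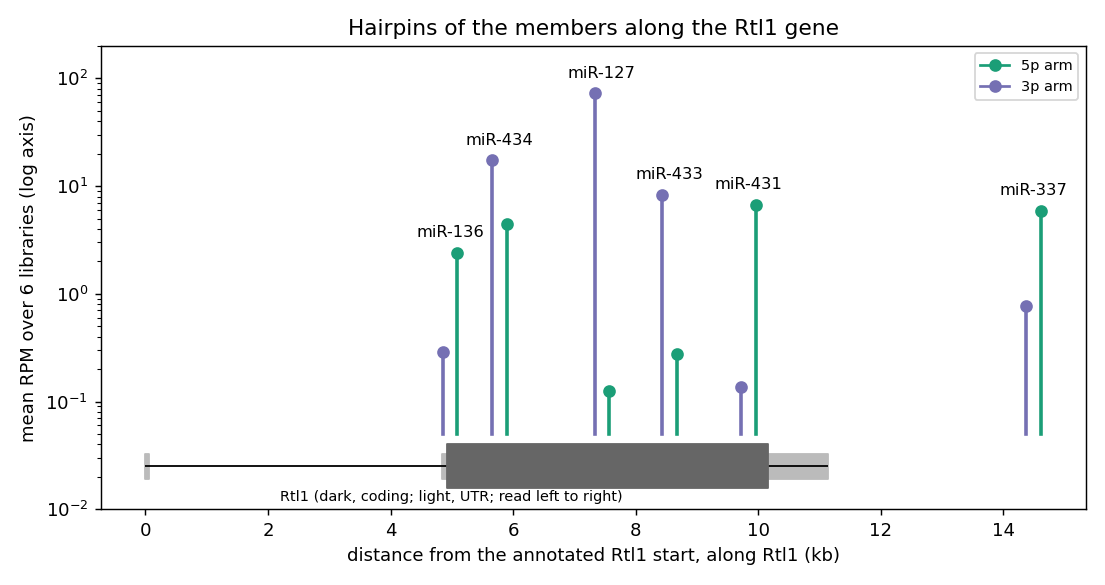
Mean level of each arm over the 6 libraries (RPM, log axis) at the position of its hairpin, as distance in kb from the annotated start of Rtl1; both arms of a hairpin are drawn side by side, and the grey bars show the Rtl1 gene. The 3p arm of miR-127 stands highest at 72.5 RPM, and miR-337 is the only hairpin outside the gene.

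The hairpin of miR-127 is printed for the highest level in the group, and that of miR-136 as an example with an overlapping antisense partner. Capitals mark the mature arms. Mir3071 lies on the other strand of the same segment as Mir136, at chr12:109595318-109595397.
Mir127: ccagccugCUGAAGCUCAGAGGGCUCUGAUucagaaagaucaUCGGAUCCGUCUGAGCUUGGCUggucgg
Mir136: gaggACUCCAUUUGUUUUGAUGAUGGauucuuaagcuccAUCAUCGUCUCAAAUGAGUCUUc
Mir3071: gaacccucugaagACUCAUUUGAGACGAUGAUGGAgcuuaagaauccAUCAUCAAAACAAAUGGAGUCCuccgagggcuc

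Levels are given as RPM, reads scaled to the full depth of a library, with 1 tag worth 0.0807 to 0.0851 RPM at a depth of 11751000 to 12385000 tags. Control replicate 1 lay farthest out on the first principal component of all tested miRNAs and GDE replicate 3 on the second. Markers of neural progenitors were present, with miR-9-5p, miR-9-3p and miR-92b-3p summing to 18017 to 19228 RPM in GDE and 18014 to 19884 RPM in Control. Markers of neurons were present as well, with a sum of 1113 to 1232 RPM in GDE and 1073 to 1414 RPM in Control. The 4 microglia and leukocyte markers summed to 315.4 to 477.5 RPM in GDE and 106.7 to 256.4 RPM in Control. Of these, miR-142a-5p was at 0 in Control replicate 1, and its libraries overlapped between the groups. Those of miR-223-3p, miR-142a-3p and miR-150-5p did not. The 3 erythroid markers summed to 73.8 to 93.5 RPM in GDE and 35.0 to 69.0 RPM in Control. Neither this set of sums nor that of the microglia and leukocyte markers overlapped between the groups. Among the erythroid markers only miR-451a lay apart by itself, at a GDE mean of 65.3 RPM against a Control mean of 34.5 RPM. The libraries overlapped for miR-486a-5p (GDE mean 15.6 RPM, Control mean 15.0 RPM). They overlapped also for miR-144-3p, which was too low to be tested. Endothelial markers (2 of 2 detected) summed to 265.0 to 464.7 RPM in GDE and 231.8 to 345.1 RPM in Control, choroid plexus markers (2 of 2) to 387.7 to 982.8 RPM and 155.9 to 520.1 RPM, and fibroblast and mural markers (4 of 4) to 73.0 to 103.7 RPM and 72.8 to 92.3 RPM. Within these last lists, miR-126a-5p (GDE mean 18.4 RPM, Control mean 13.8 RPM), miR-145a-5p (4.84 and 2.77 RPM) and miR-211-5p (5.2 and 1.5 RPM) lay apart by themselves. The libraries overlapped for miR-126a-3p, miR-143-3p, miR-199a-3p, miR-214-3p and miR-204-5p. Of all tested miRNAs, 4.62% lay apart with GDE higher. The part of the marked cell types in the levels below was not tested, and fewer cells of a type cannot be told apart from less RNA per cell.

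The group was dominated by miR-127-3p, the arm best known for its pairing with Rtl1 and, in human cells, with BCL6 mRNA. In GDE it was at 68.2, 68.6 and 56.9 RPM, or 817, 810 and 690 tags. In Control it was at 74.5, 74.0 and 92.8 RPM, or 896, 917 and 1090 tags. Every GDE library lay below every Control library (nearest pair, GDE replicate 2 and Control replicate 2). The means were 64.6 ± 6.63 RPM in GDE and 80.4 ± 10.7 RPM in Control (SD, n = 3 each). The log2 fold of GDE over Control, on the log2(RPM + 1) scale, was -0.31 (SE 0.21), with a 95% interval of -0.79 to 0.17. It did not pass the threshold in the full set of 649 (limma, adjusted p = 0.643, with 0.582 to 0.886 across alternative settings). By exact permutation, two-sided, p was 0.1, the lowest value possible with 3 libraries in each group. Groups that do not overlap, as here, were found for 14.6% of all tested miRNAs, 10% with GDE lower and 4.62% with GDE higher. miR-127-3p was 1 of 7 tested members, a share near that background.

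In the order of mean levels over the 6 libraries, miR-127-3p came first with a mean of 72.5 RPM, which placed it at 187 of the 1522 rows, and miR-434-3p second with 17.4 RPM. miR-433-3p (8.32 RPM), miR-431-5p (6.66 RPM), miR-337-5p (5.87 RPM) and miR-434-5p (4.45 RPM) formed a run in which each overlapped its neighbour in range. miR-136-5p followed at 2.39 RPM, below miR-434-5p in 6 of 6 libraries, and the other arms miR-337-3p, miR-136-3p and miR-127-5p stayed under 1 RPM on average. These are levels of adapter-ligated reads, and ligation favours some sequences over others, so a step between members need not be a step in molecules.

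**Figure D2:**
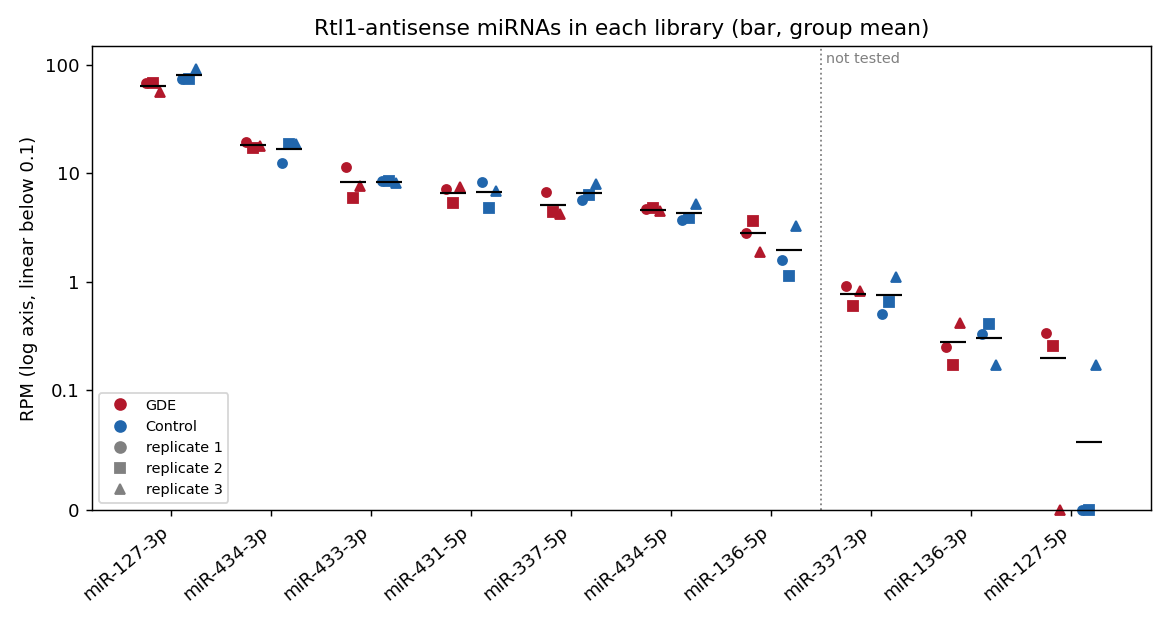
Level of each member in each library (RPM, log axis, linear below 0.1), with GDE at the left and Control at the right of each pair and bars at the group means. The groups are apart for miR-127-3p only, and the 3 members right of the dotted line were too low to be tested.

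miR-434 was the second hairpin by level. Its 3p arm, linked in mouse skeletal muscle to cell survival, was at 19.5, 17.0 and 17.8 RPM in GDE and at 12.5, 18.6 and 18.7 RPM in Control. Control replicate 1 was low, and the other 5 libraries lay between 17.0 and 19.5 RPM. The log2 fold was 0.14 (SE 0.23), with a 95% interval of -0.39 to 0.66 (limma, adjusted p = 0.901; exact permutation p = 0.8), and without Control replicate 1 it was -0.04. The 5p arm was at 4.68, 4.74 and 4.45 RPM in GDE and at 3.74, 3.88 and 5.19 RPM in Control. The GDE libraries lay inside the range of the Control libraries, with a log2 fold of 0.10 (SE 0.19; 95% interval -0.34 to 0.55; limma, adjusted p = 0.908; exact permutation p = 0.4). It was 0.03 without Control replicate 1, 0.05 without Control replicate 2 and 0.23 without Control replicate 3.

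miR-433-3p, known in human cells to repress FGF20, was at 11.4, 5.93 and 7.59 RPM in GDE, and at 8.48, 8.48 and 8.08 RPM in Control. The Control libraries were nearly level, while GDE replicate 1 was the highest and GDE replicate 2 the lowest of all 6. The log2 fold was -0.05 (SE 0.25; 95% interval -0.62 to 0.52; limma, adjusted p = 0.989; exact permutation p = 1), and it was 0.14 without GDE replicate 2. miR-431-5p, which in mouse sensory neurons promotes axon growth, was at 7.18, 5.33 and 7.42 RPM in GDE and at 8.39, 4.76 and 6.89 RPM in Control. The groups overlapped throughout, with a log2 fold of 0.01 (SE 0.25; 95% interval -0.56 to 0.58; limma, adjusted p = 0.995; exact permutation p = 1).

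miR-136-5p was the lowest tested member. It held 34, 43 and 23 tags in GDE, or 2.84, 3.64 and 1.90 RPM, and 19, 14 and 38 tags in Control, or 1.58, 1.13 and 3.23 RPM. The highest library was a GDE one and the lowest a Control one, but Control replicate 3 lay among the GDE values. The log2 fold was 0.38 (SE 0.31; 95% interval -0.33 to 1.09; limma, adjusted p = 0.722; exact permutation p = 0.4), the largest positive value among the 7. It was 0.17 without Control replicate 2 and 0.22 without GDE replicate 2, but 0.67 without Control replicate 3, in each case not past the threshold (limma, adjusted p = 0.907, 0.938 and 0.471). miR-337-5p, of the hairpin beyond Rtl1, was at 6.68, 4.40 and 4.21 RPM in GDE and at 5.65, 6.30 and 8.00 RPM in Control. Without GDE replicate 1 the groups would be apart, but that library lay above 2 of the 3 Control libraries. Its log2 fold was -0.34 (SE 0.23; 95% interval -0.88 to 0.20; limma, adjusted p = 0.66; exact permutation p = 0.3), and it was -0.52 without GDE replicate 1 and -0.22 without Control replicate 3 (limma, adjusted p = 0.506 and 0.783).

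Of the 7 tested members, 0 passed the threshold of 0.05 in limma, in a comparison where 0.308% of all tested miRNAs did. None of the 7 had an unadjusted p under 0.05 in limma, against 8.63% of all tested miRNAs, and none was called by edgeR or DESeq2 on the recovered tags. In edgeR, too, none had an unadjusted p under 0.05, against 8.01% of all. Without Control replicate 3, 1 member had an unadjusted p under 0.05 in limma, and in every other alternative 0 did. The share of all miRNAs in that fit is not given here. The log2 folds ran from -0.34 to 0.38, with 4 positive and 3 negative and a median of 0.01. Scaled to the sum of the table or by TMM, 5 of the 7 were positive, since miR-433-3p changed sign. Over all 649 tested miRNAs, 252 were positive and 397 negative, with a median of -0.07. That split moved with the scaling, to 305 and 344 (median -0.02) when scaled to the sum of the table and to 342 and 307 (median 0.02) with TMM. A p over the threshold does not show equal levels. The intervals allow, for miR-127-3p, a fold between 0.577 and 1.13, and for miR-136-5p one between 0.798 and 2.13, on the RPM + 1 scale.

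**Figure D3:**
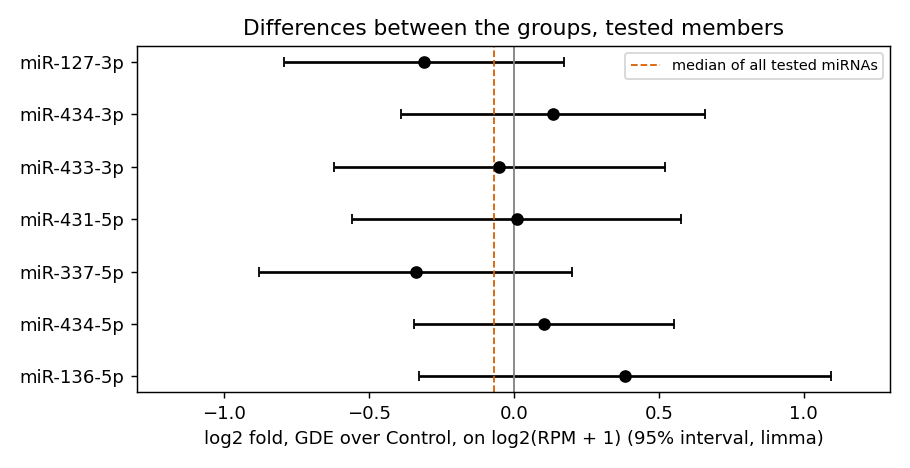
Log2 fold of GDE over Control on log2(RPM + 1) for the 7 tested members, in order of level, with 95% intervals from limma. Each interval includes 0, and the dashed line marks the median of all tested miRNAs at -0.07.

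The spread between libraries of a group is given as the variance over the mean of the tags within groups, which is about 1 where tags are independent and counting alone acts. It was 9.44 for miR-127-3p, 5.05 for miR-434-3p, 5.78 for miR-433-3p, 4.57 for miR-136-5p, 4.09 for miR-431-5p and 3.14 for miR-337-5p. For miR-434-5p it was 0.691, with 45 to 61 tags in each of the 6 libraries. Tags here are PCR reads without known molecular identifiers, so a value above 1 does not separate PCR copies from a difference between litters.

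The 3 members that were not tested were the minor arms of their hairpins. miR-337-3p held 11, 7 and 10 tags in GDE and 6, 8 and 13 in Control. For miR-136-3p there were 3, 2 and 5 tags in GDE and 4, 5 and 2 in Control. miR-127-5p held 4, 3 and 0 tags in GDE and 0, 0 and 2 in Control, 9 tags in all. A library with 0 tags allows up to 3 tags, or about 0.25 RPM, so the sums of 7 tags in GDE and 2 tags in Control cannot be told apart at this depth (exact Poisson 95% intervals 2.8 to 14.4 and 0.2 to 7.2, for counting error only). Exact permutation p was 1 for miR-337-3p, 0.9 for miR-136-3p and 0.4 for miR-127-5p.

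The hairpins differed in which arm was kept. The 5p arm held 98.0% of the tags of miR-431 over the 6 libraries, 89.1% of those of miR-136 and 88.5% of those of miR-337. By contrast it held 3.23% for miR-433 and 0.172% for miR-127, with miR-434 at 20.4% the most even. Exact binomial 95% intervals were 83.8 to 93.1% for miR-136, 85.3 to 91.2% for miR-337, 18.4 to 22.4% for miR-434 and 0.079 to 0.326% for miR-127. They pool the tags of all 6 libraries and hold counting error only. Single libraries ran wider, from 73.7 to 95.6% for miR-136 and from 17.3 to 23.0% for miR-434. In each library the same arm led, so the preferred arm of none of the 6 hairpins differed between GDE and Control.

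**Figure D4:**
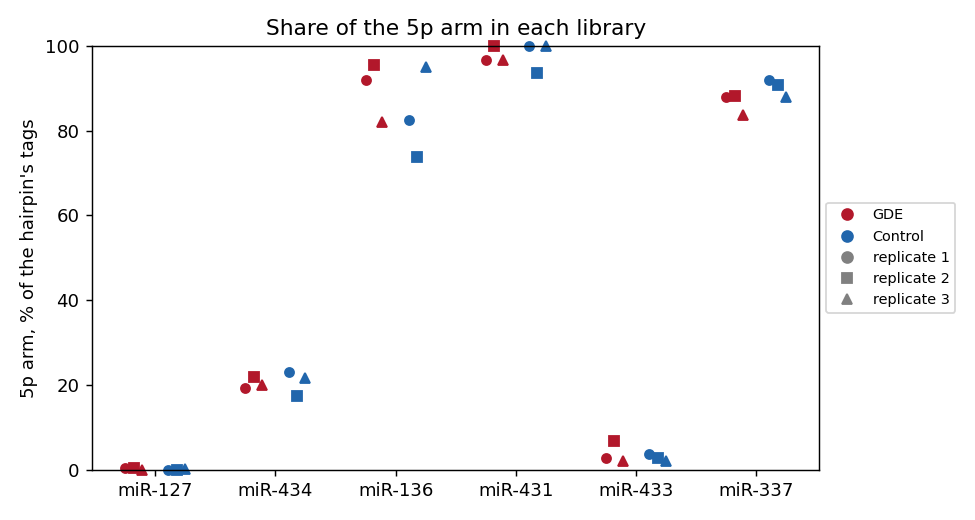
Share of the 5p arm in all tags of a hairpin (%), for each library, with GDE at the left and Control at the right of each pair. miR-136, miR-431 and miR-337 lie above 70% in every library and miR-127, miR-433 and miR-434 below 25%.

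The share itself was at 20.4 ± 1.25% in GDE and 20.6 ± 2.99% in Control for miR-434 (SD, n = 3 each), the 1 hairpin of the group with both arms past the filter. Its log2 ratio of 5p over 3p differed by -0.03 between GDE and Control (SE 0.21; 95% interval -0.52 to 0.46; limma, adjusted p = 0.99 over 155 hairpins). Of these 155 hairpins, 0 passed the threshold and 9, or 5.81%, had an unadjusted p under 0.05 in limma. For miR-337 the 5p share was 87.9, 88.1 and 83.6% in GDE and 91.9, 90.7 and 87.9% in Control, and for miR-136 it was 91.9, 95.6 and 82.1% in GDE and 82.6, 73.7 and 95% in Control. Both overlapped between the groups and rest on 55 and 21 tags of the minor arm.

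Reads from the strand of Rtl1 itself were listed for the segments of miR-136 and miR-337. miR-3071-3p is complementary to miR-136-5p over 20 bases, and it held 7, 5 and 10 tags in GDE and 9, 3 and 8 in Control. It had 42 tags in all, against 171 for miR-136-5p. miR-3544-5p, complementary to miR-337-3p over 21 bases, held 2 tags in all, against 55 for miR-337-3p. Whether the authors counted by strand is not given in the sources used here, so how far the reads of each pair were kept apart is not known. Of the other listed arms of the antisense transcript, miR-431-3p held 10 tags in all, miR-433-5p 20, miR-540-3p 60 and miR-540-5p 15, and none reached 1 RPM in 3 libraries.

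Members differed in how alike they were from library to library. Over the 21 pairs of tested members, Pearson's r of log2(RPM + 1) over the 6 libraries ran from -0.47 to 0.88 with a median of 0.195, 15 pairs being positive. miR-434-5p with miR-136-5p stood highest at 0.88 and miR-127-3p with miR-337-5p next at 0.83, while both arms of miR-434 were at 0.62. The difference between the groups enters these values. With each group centred on its own mean, a reading chosen after seeing the data, r ran from -0.51 to 0.95 with a median of 0.373, and 16 pairs were positive. miR-127-3p with miR-136-5p was then highest at 0.95, against 0.20 uncentred, and miR-127-3p with miR-434-5p was at 0.87, against 0.24. The pair of miR-434-5p and miR-136-5p was at 0.86. These are descriptions over 6 libraries that share their scaling, and no pairs of other miRNAs are set beside them. By uncentred r with miR-127-3p, miR-337-5p ranked 17 among the 562 tested named miRNAs. The ranks of miR-434-5p, miR-136-5p, miR-433-3p, miR-434-3p and miR-431-5p were 244, 263, 300, 339 and 365. The miRNAs most like miR-127-3p over the 6 libraries, out of 555 named ones outside the group, were miR-301a-5p (r = 0.96), let-7k (0.93), miR-379-5p (0.91), miR-362-3p (0.90) and miR-28a-3p (0.89). They are the highest of many values, and the group difference enters here too: centred within groups, the same 5 were at 0.91, 0.83, 0.79, 0.91 and 0.81. The 555 were not ranked on centred values, so which miRNA is most like miR-127-3p on that measure is not known. Of the 5, miR-379-5p belongs to the same locus, downstream of the members.

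The rest of the locus was set beside the group. Downstream of Rtl1, from miR-341 to miR-410, 26 listed miRNAs were tested, of which 17 had a log2 fold above 0 and 9 below it (median 0.19), where the members had 4 of 7 above 0 (median 0.01). The threshold was passed by 0 of the 26 in limma. An unadjusted p under 0.05 in limma was found for 6 of the 26, all higher in GDE, and for 8.63% of all tested miRNAs in both directions together. The share of all tested miRNAs with such a p and GDE higher is not given here. The 3 most abundant downstream miRNAs did not share a direction. miR-379-5p averaged 46.3 ± 13.5 RPM in the GDE libraries and 69.4 ± 8.72 RPM in the Control libraries, and miR-411-5p averaged 42.9 ± 2.32 RPM in the GDE libraries and 52.8 ± 9.91 RPM in the Control libraries. miR-376a-3p averaged 30.1 ± 2.29 RPM in the GDE libraries and 15.4 ± 3.55 RPM in the Control libraries (SD, n = 3 each), and none of the 3 passed the threshold in limma. In sum, the 62 downstream rows, tested or not, were at 343.3, 290.2 and 275.4 RPM in GDE and at 253.7, 279.9 and 336.98 RPM in Control. The members summed to 121.9, 110.6 and 101.5 RPM in GDE and to 115.7, 118.2 and 144.3 RPM in Control. As a share of all listed RPM of the locus, the members made up 25.8, 27.2 and 26.6% in GDE and 31.0, 29.4 and 29.7% in Control. Every GDE library lay below every Control library in this share, which is given as a description with no test.

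**Figure D5:**
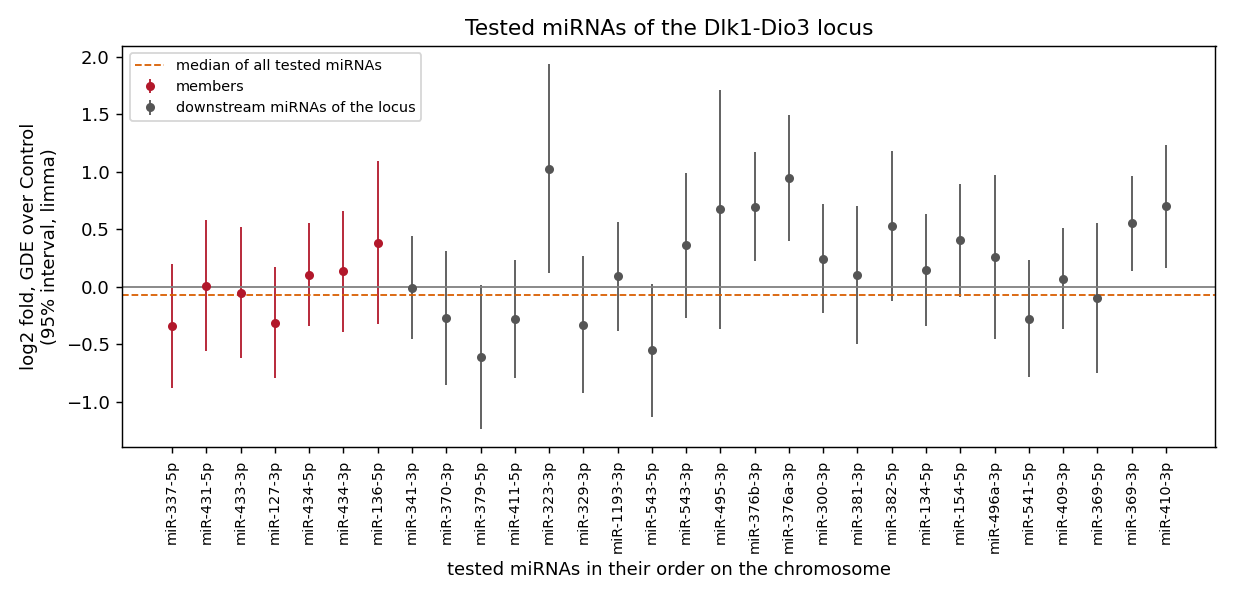
Log2 fold of GDE over Control with 95% intervals (limma) for the 30 tested miRNAs of the locus that had a RefSeq position, in chromosome order. The 7 members lie between -0.34 and 0.38, and the 23 downstream miRNAs between -0.61 and 1.03.

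miR-127-3p carried much of that share. It made up 56.0, 62.0 and 56.1% of the members' RPM in GDE and 64.4, 62.6 and 64.3% in Control. The other 9 members together were at 53.7, 42.1 and 44.6 RPM in GDE and at 41.2, 44.2 and 51.6 RPM in Control. In RPM the groups overlapped for these 9 and also for the sum of all members. The share of the locus without miR-127-3p was not computed.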

How the data were processed

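Small RNA of 6 libraries was sequenced from MGIEasy small RNA libraries, per the labels' protocols. Bowtie2 and the build mm10 (GRCm38) are named in the submitters' processing notes, without a version or a role. How reads were trimmed and how multiple matches and strand were treated was not given in the sources used here. Per the file headers the deposited columns are called expression only, and they were read as RPM from the values. Low values were whole multiples of 1 step per library, and 100% of nonzero values came out whole within 0.1 tags. So whole tags were recovered, and edgeR called 2 miRNAs on them. Rows of the table held 2927136 to 3343808 tags per library.

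limma 3.58.1 in R 4.3.3 was fitted with a trend on log2(RPM + 1), without further scaling, to the 649 rows that reached 1 RPM in at least 3 libraries. Tests were two-sided, with Benjamini-Hochberg adjustment over all tested miRNAs and a threshold of 0.05. edgeR 4.0.16 and DESeq2 1.42.0 were run on recovered tags as alternatives, beside other pseudocounts, filters, scalings, the replicate number as a block, and fits without 1 library each. Arm ratios were tested in limma over 155 hairpins with both arms past the filter. Single values had an exact permutation test (scipy 1.17.1). The scripts were tested on simulated data. Sequences are from RefSeq (GRCm38.p6), and transcripts and gene positions from GENCODE M21. The members and lists were chosen with earlier results of these data known. Named were all 10 members, listed neighbours at 1 RPM or more in 3 libraries, the 3 most abundant downstream miRNAs and the 5 most like miR-127-3p. Lower neighbours are given by tags, without a test. Whether numbers pair the libraries was checked by the correlation of deviations from group means, given below.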

Additional observations from a re-analysis of the deposited data

How the results depend on the processing

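In none of the 15 alternatives was a member called, and the 5p over 3p arm ratio gave 0 calls in each of its 10. The number of calls over all miRNAs, 2 in limma, was 1 with at least 10 RPM in 3 libraries (where 2 members were left to test), 7 in DESeq2, and 1 to 2 without 1 library each. Of 109 alternative values of single log2 folds and the miR-434 arm ratio, 98 kept their sign and 11 changed it. Those 11 belong to miR-434-3p, miR-431-5p, miR-433-3p and the miR-434 ratio, at 0.14, 0.01, -0.05 and -0.03 in the main fit. miR-433-3p was at 0.0024 scaled to the sum of the table, 0.040 with TMM, 0.089 in edgeR and 0.080 in DESeq2. Without 1 library each, the log2 folds ran from -0.28 to 0.14 for miR-433-3p, from -0.18 to 0.17 for miR-431-5p and from -0.043 to 0.23 for miR-434-3p, from 0.03 to 0.23 for miR-434-5p, and the miR-434 ratio from -0.17 to 0.076. For these changes of sign the cause was not tested. The means of miR-431-5p differed in the other direction on log2(RPM + 1), again with an exact permutation p of 1. miR-127-3p (-0.37 to -0.20) and miR-337-5p (-0.52 to -0.14) stayed negative and miR-136-5p (0.10 to 0.67) positive in every alternative that tested them. With a replicate block, limma called 2 miRNAs and 0 members, the same counts as without it. Whether the 2 were the same miRNAs was not compared. Same-numbered libraries of the groups had deviations that correlated at -0.03, -0.12 and -0.03, so the numbers were not taken as pairs. Depth limits miR-127-5p, miR-136-3p and miR-337-3p most, with 0 to 13 tags per library.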

Other observations

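Upstream of the members lies miR-770, whose hairpin is within Meg3, the maternally expressed long noncoding RNA at the start of the miRNA region. It is named here after its values were seen. miR-770-5p held 28, 13 and 6 tags in GDE and 3, 3 and 5 in Control, and miR-770-3p held 18, 11 and 10 tags in GDE and 6, 4 and 6 in Control. For both arms every GDE library lay above every Control library. Of all tested miRNAs, 4.62% lay apart in this direction, and no such share was counted for rows as low as these. Neither arm reached 1 RPM in 3 libraries, so neither was tested. The other upstream arms all overlapped between the groups. miR-673-3p had 0, 0 and 0 tags in GDE and 3, 3 and 0 in Control, where a library at 0 allows up to 3 tags. miR-673-5p had 4, 4 and 0 tags in GDE and 1, 1 and 0 in Control. For miR-493-5p there were 7, 13 and 12 tags in GDE and 4, 10 and 10 in Control, and for miR-493-3p 1, 0 and 2 and 1, 0 and 0.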
